A study of Mus musculus with 36 samples.

Results

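The comparison described here set the livers of 4 C57BL/6 mice 28 days after bile duct ligation (BDL28) against the livers of 4 mice 7 days after the same surgery (BDL7). These 8 libraries are part of a series of 36, in which other mice received cyclosporin A or a diet with 3,5-diethoxycarbonyl-1,4-dihydrocollidine (DDC). The libraries were taken by their group label, and a gene was kept if 4 or more of the 8 libraries had a normalized count of 10 or above, which left 11353 of the 29546 genes in the deposited table. Livers of 4 sham-operated mice (SHAM) gave the control level and entered no test of day 28 against day 7. The labels name the 7-day group acute and the 28-day group chronic cholestasis. They give no sex, age or hour of collection, and no day for the sham animals, so time after ligation cannot be told apart from age or from the day on which a group was handled. Every animal of the 3 groups is of the same strain, and the labels name no engineered allele in it. Nothing in the labels says more of how the animals of a group are related than that they are separate samples, so the p-values measure the spread between these samples.

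Bile duct ligation closes the common bile duct by surgery. Bile acids and bilirubin then accumulate in the liver, hepatocytes die and divide, bile ducts proliferate, and stellate cells and portal fibroblasts deposit collagen. Hepatocytes answer bile acids through nuclear receptors such as the farnesoid X receptor, the pregnane X receptor (PXR) and the constitutive androstane receptor (CAR), which adjust synthesis, uptake, sulfation and export. RNA was read with a 3' end method that carries molecular identifiers, so a value counts molecules of a gene per library and is not scaled by gene length. In whole liver, fewer cells of a type and less RNA per cell cannot be told apart.

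The recovered reads numbered 2476675 to 3064666 per library in BDL7, 2378491 to 2908075 in BDL28 and 2278745 to 2887494 in SHAM. Alb, which encodes albumin and marks hepatocytes, stood at 14292, 17275, 18296 and 14089.7 in BDL7 and at 16738, 13236, 15660.4 and 18163 in BDL28 (log2 change -0.0036, SE 0.16, limma adjusted p = 0.99). The library labelled BDL28 replicate 1 stood apart from the rest of its group: 1332 genes lay more than 1 log2 unit from the mean of the other 3, against 374 to 737 for those 3 and 175 to 278 for the BDL7 libraries. Mitosis, matrix and stellate cell genes were higher in it than in the other BDL28 libraries, and amino acid catabolism genes were lower. Its share of mitochondrially encoded counts was the lowest of the group, 5.50% against up to 7.06%, within the 5.01% to 6.12% of BDL7. List counts that moved by more than 1.5 times without this library are given with it and without it. Values of single libraries are normalized counts in the order of replicates 1 to 4, so the first BDL28 value is always this library.

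From day 7 to day 28, the genes called among those of cell division, interferon response, major urinary proteins, lipogenesis and endoplasmic reticulum chaperones were mostly or all lower, and those called among female-biased genes, targets of CAR and PXR and clock genes were all higher with all libraries in the fit. By limma with Benjamini-Hochberg adjustment, 1081 genes (9.52% of those tested) were called higher at day 28 and 1243 (10.9%) lower at an adjusted p under 0.05, 20.5% in either direction. Of these, 290 higher and 536 lower genes differed by more than 1 log2 unit. Without BDL28 replicate 1, 1920 genes (16.9%) were called higher and 2207 (19.4%) lower, and 1066 and 1231 of the calls with all libraries were among them. Leaving out one of the other 7 libraries gave fewer calls, from 376 (without BDL28 replicate 3) to 888 higher and from 534 (without BDL7 replicate 1) to 1037 lower, with the most in both directions without BDL28 replicate 4. With each of the 8 libraries left out in turn, 335 higher and 433 lower calls were kept every time, and genes with such a call are said below to hold in every fit. The libraries of the groups did not overlap for 1294 genes (11.4%) in the higher and 1408 (12.4%) in the lower direction, 23.8% in either. The median change over all genes tested was -0.01 log2 units. The list counts below are to be read beside the shares of all genes called in the same direction with the same libraries.

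The sham level gives each change a position. A change was counted as a return where the day 28 mean lay nearer the sham mean than the day 7 mean on the same side, as a crossing where it passed to the other side, and as a move further where it lay further away on the same side. Of the genes called higher, 90 were returns, 578 crossings and 413 moves further. Of the genes called lower, 239 were returns, 485 crossings and 519 moves further. Only 136 of the 578 and 147 of the 485 crossings were called against SHAM at day 7. Most crossings therefore started from a level not told apart from sham. Among genes not called at day 28 against day 7, 36.9% were returns, 20.5% crossings and 42.6% moves further. Without BDL28 replicate 1 the counts were 270, 977 and 673 for higher genes and 544, 933 and 730 for lower genes. At the same threshold 36.2% of the genes tested were called against SHAM at day 7 and 44.2% at day 28. Position was read from group means with no test of its own. Both distances share the sham libraries, and each shares its ligated libraries with the called change.

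**Figure D1:**
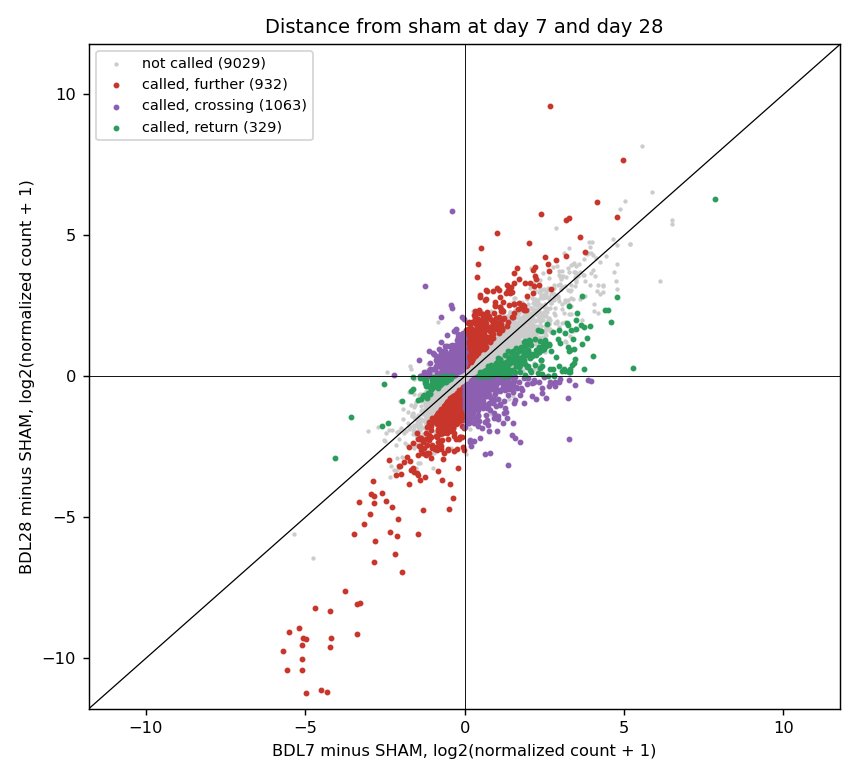
Difference from the SHAM mean at day 7 (horizontal axis) and at day 28 (vertical axis), both in log2(normalized count + 1), with 1 point per gene tested. Colours mark the 329 called genes that returned toward, the 1063 that crossed and the 932 that moved further from the sham level, and grey points are the genes not called. Points at the far lower left, below the diagonal, are the major urinary protein genes, which were below sham at day 7 and further below at day 28.

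Cell division genes fell. Of 33 tested genes of G2 phase and mitosis, 32 were lower at day 28 and 0 higher, with a median change of -2.85 against -0.01 over all genes. Their median distance from sham fell from 3.12 log2 units at day 7 to 0.21 at day 28, and 22 of the called genes were returns and 10 crossings. The mean of the list relative to sham was 1.99 in BDL28 replicate 1 and -0.71, -0.23 and -0.15 in replicates 2 to 4. The day 28 median and the positions thus average libraries on both sides of sham. Aurkb, Ube2c and Pbk, 3 of the 33, were under 10 in every BDL28 library and so passed the filter through BDL7 alone, the group where they are high. Top2a, Ccnb1, Ccna2 and Mki67 reached 10 in BDL28 only in replicate 1, and their BDL7 values alone were enough to pass. Top2a, the topoisomerase that untangles replicated DNA, read 175, 228, 169.5 and 176 in BDL7, 69.9, 6.43, 4.64 and 5.36 in BDL28 and 22, 24.8, 17.9 and 13 in SHAM. All BDL28 libraries were below all BDL7 libraries, and the first BDL28 library was far above the other 3 (log2 change -3.99, SE 0.76, limma adjusted p = 0.013). Without that library the change was -4.86 (limma adjusted p = 1.3e-08). Ccnb1, the mitotic cyclin, read 39.3, 58, 38.9 and 42 at day 7 and 13.8, 0.919, 3.71 and 2.14 at day 28 (log2 change -3.31, SE 0.53, limma adjusted p = 0.0051). Ccna2, the cyclin of S and G2 phase, read 47.6, 58, 33.9 and 38.9 and then 17.7, 1.84, 2.79 and 3.22 (log2 change -3.05, SE 0.52, limma adjusted p = 0.0065). Kif23, a kinesin of the dividing cell's midzone, changed by -2.93 and Ube2c, which feeds cyclins to the proteasome, by -2.60 on the same scale. The calls of Top2a, Ccnb1, Ccna2 and Kif23 held in every fit. Mki67, the antigen used to stain dividing cells, read 52.6, 80.4, 45.9 and 49.6 at day 7 and 35.4, 2.76, 2.79 and 2.14 at day 28, and its call (log2 change -3.16, SE 0.71, limma adjusted p = 0.018) was lost without BDL28 replicate 2 or 3.

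Stretches of the promoters of such genes are shown because the members fell together and because a pair of known elements of cell cycle promoters could be read in them. The sequences are RefSeq promoter windows of GRCm38.p6, 5′ to 3′ on the gene's strand, with capitals on each match of the CCAAT box (CCAAT or ATTGG) and of the core of the cell cycle homology region (TTTGAA or TTCAAA).
Top2a: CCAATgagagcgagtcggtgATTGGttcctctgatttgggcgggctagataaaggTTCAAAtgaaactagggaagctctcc
Ube2c: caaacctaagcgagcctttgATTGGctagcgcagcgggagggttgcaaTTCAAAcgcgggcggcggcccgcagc
Mki67: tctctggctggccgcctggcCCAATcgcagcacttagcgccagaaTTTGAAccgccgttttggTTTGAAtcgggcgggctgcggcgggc
Kif23: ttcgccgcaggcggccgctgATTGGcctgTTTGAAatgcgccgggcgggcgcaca
The stretches lie at chr11:99024187-99024267, minus strand for Top2a, chr2:164769852-164769925, plus strand for Ube2c, chr7:135716452-135716540, minus strand for Mki67 and chr9:61946772-61946826, minus strand for Kif23. Windows of 300 bases, from 250 before to 50 after a start site, were held for 25 of the 33 genes of G2 phase and mitosis and for 8604 of all genes tested. The core TTTGAA, on either strand, stood in 20 of the 25 (80%) and in 14.5% of all tested genes with a window. CCAAT stood in 21 of the 25 (84.0%) against 43.1%. In 10 of 11022 windows a match of one shared a base with a match of the other. A match describes letters and is not a measured site, and the windows held cover only part of the genes.

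Genes of G1 and S phase were lower too, with 17 of 26 tested called lower and 0 higher and a median change of -1.1. Ccne2, 1 of the 26, passed the filter through BDL7 alone. Mcm3, a subunit of the replicative helicase, read 64.3, 114, 55.8 and 84.7 at day 7, 41.3, 27.6, 19.5 and 16.1 at day 28 and 16.5, 24.8, 13.7 and 23.7 in SHAM (log2 change -1.61, SE 0.30, limma adjusted p = 0.0089). E2f1, a transcription factor that opens S phase, read 20.1, 20.3, 27.9 and 22.9 and then 11.8, 0.919, 2.79 and 3.22, against 12.4, 8.69, 13.7 and 11.9 in SHAM (log2 change -2.41, SE 0.51, limma adjusted p = 0.012). Ccnd3, a D-type cyclin, was near its sham values of 133, 150.2, 136 and 185 at day 7, with 157, 139, 149.6 and 143, and fell at day 28 to 79.7, 58.8, 59.4 and 54.7 (log2 change -1.22, SE 0.14, limma adjusted p = 0.0014). The calls of Mcm3, E2f1 and Ccnd3 held in every fit. With a library left out, the count for G2 phase and mitosis ran from 18 without BDL28 replicate 3 to 33 without BDL28 replicate 1, and 16 of the 32 calls held in every fit. For G1 and S phase it ran from 6 to 23, at the same libraries, and 7 without BDL7 replicate 2. With no filter on low counts, 28 of 36 and 15 of 29 members were called lower.

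**Figure D2:**
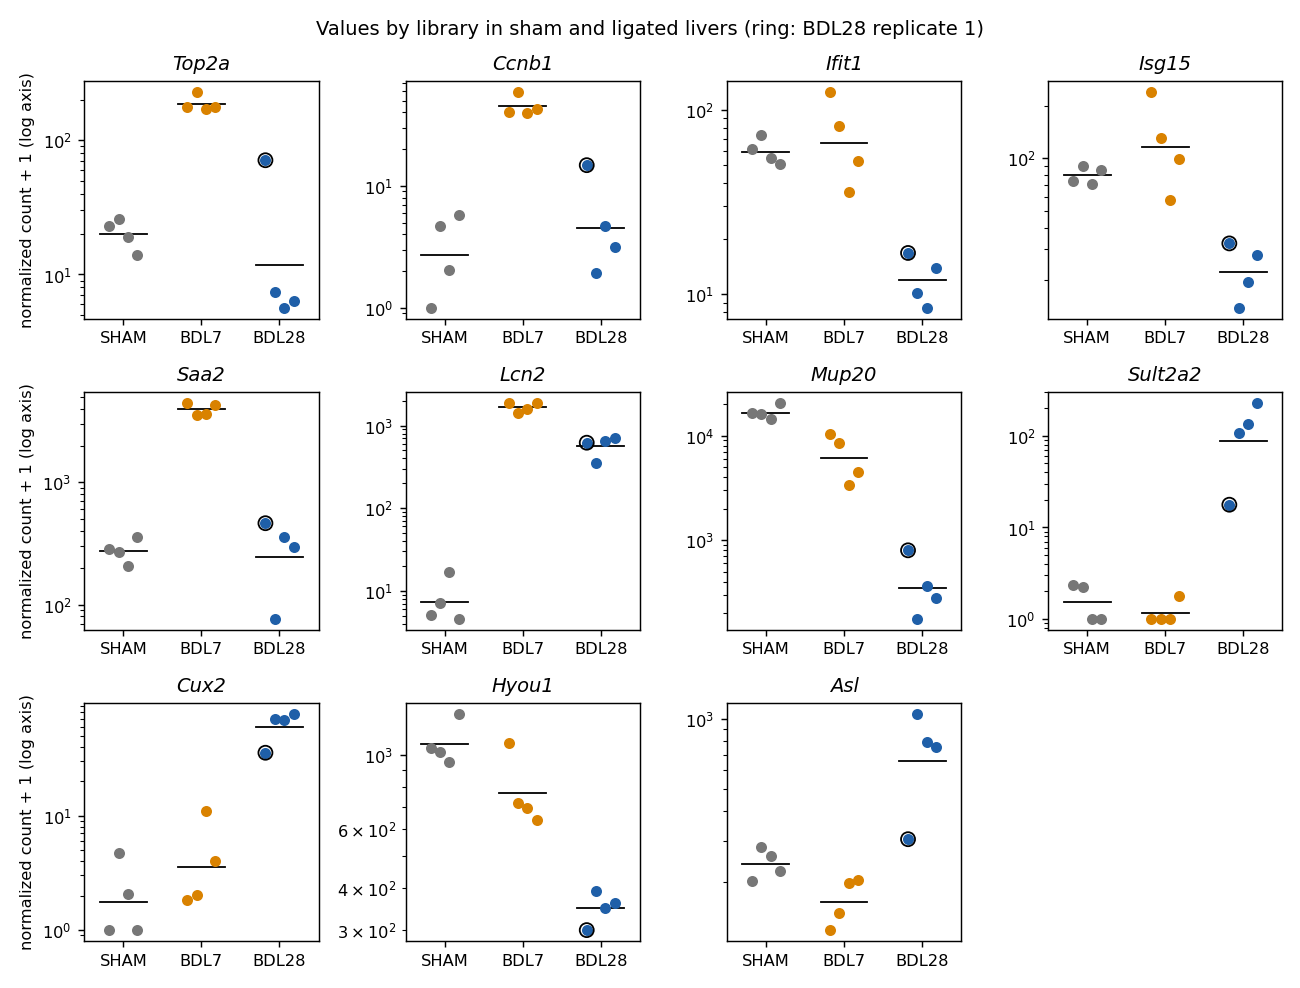
Normalized count + 1 on a log axis for 11 genes, with 1 point per library of SHAM, BDL7 and BDL28, bars at the geometric means and a ring on BDL28 replicate 1. BDL28 points lie below all BDL7 points for the genes of division, interferon response and acute phase and for Mup20 and Hyou1, and above them for Sult2a2, Cux2 and Asl.

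Interferon-stimulated genes, which cells switch on when interferons or viral nucleic acids are sensed, were by their median slightly above the sham level at day 7 and below it at day 28. Of 28 tested, 25 were lower at day 28 and 0 higher, with a median change of -1.57, and the median distance from sham went from 0.52 to -1.24 log2 units. Crossings made up 21 of the 25. Among the interferon-inducible GTPases, which attack the vacuoles of intracellular microbes, 12 of 16 tested were lower and 0 higher, with a median of -1.70. The sequences shown are from genes whose promoter windows held the core of the interferon-stimulated response element, GAAA and GAAA with any 2 bases between them (TTTC and TTTC on the other strand), marked in capitals, with overlapping matches run together.
Ifit1: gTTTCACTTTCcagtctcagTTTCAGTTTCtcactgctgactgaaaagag
Ifit3: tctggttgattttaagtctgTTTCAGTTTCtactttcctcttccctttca
Isg15: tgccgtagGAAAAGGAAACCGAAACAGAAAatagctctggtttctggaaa
Rsad2: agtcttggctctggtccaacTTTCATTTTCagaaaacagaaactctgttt
Gbp7: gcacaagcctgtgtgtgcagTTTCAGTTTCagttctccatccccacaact
They lie, on GRCm38.p6, at chr19:34640784-34640833, plus strand for Ifit1, chr19:34583387-34583436, plus strand for Ifit3, chr4:156200855-156200904, minus strand for Isg15, chr12:26456543-26456592, minus strand for Rsad2 and chr3:142530263-142530312, plus strand for Gbp7. The element stood in 8 of the 9 GTPase genes with a window (88.9%) and in 9 of the 20 interferon-stimulated genes with one (45.0%), against 3.73% of all tested genes with a window and 7.70% of those called lower. The gamma-activated site, TTCNNNGAA, stood in 5 of the 9 GTPase genes (55.6%) against 8.18% of all, and in 12 of 11022 windows the 2 elements shared a base.

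Ifit1, which binds foreign RNA, read 124, 80.4, 34.9 and 51.9 at day 7, 15.7, 9.19, 7.43 and 12.9 at day 28 and 60.5, 72, 53.7 and 49.8 in SHAM (log2 change -2.48, SE 0.37, limma adjusted p = 0.0041). Isg15, a ubiquitin-like protein, read 239.8, 130.2, 56.8 and 98.5, then 31.5, 12.9, 18.6 and 26.8, against 72.9, 89.4, 70.5 and 84.2 in SHAM (log2 change -2.38, SE 0.42, limma adjusted p = 0.0084). Rsad2, the antiviral enzyme viperin, read 480.4, 248, 204 and 233 and then 115, 80.9, 60.4 and 66.5 (log2 change -1.80, SE 0.28, limma adjusted p = 0.0051). For these genes all BDL28 libraries lay below all BDL7 libraries and below all SHAM libraries. Oasl1, of the oligoadenylate synthetase family, changed by -2.87, Ifit3 by -2.66, Cmpk2 by -2.02 and Ifi27l2a by -3.17 on the log2 scale, and all 7 calls held in every fit. Among the GTPases, Gvin1 read 740.2, 287, 176 and 100 and then 35.4, 31.2, 28.8 and 43.9 (log2 change -2.81, SE 0.53, limma adjusted p = 0.013). Gbp11, which passed the filter through BDL7 alone, changed by -3.50, given as a description with no test. Of the 12 calls, which include Gbp11, only that of Gvin1 held in every fit besides that of Gbp11. Gbp7 read 344, 155, 92.7 and 87.8 and then 50.2, 27.6, 34.4 and 55.7 (log2 change -1.81, SE 0.42, limma adjusted p = 0.02), and its call was lost without BDL28 replicate 2 or 3 or BDL7 replicate 2. Cxcl9 and Cxcl10, chemokines that draw T cells, changed by -4.52 and -3.76, with both calls lost without BDL28 replicate 3 or BDL7 replicate 1 or 2, and that of Cxcl9 also without BDL28 replicate 2.

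The day 7 libraries were not alike in this response. The library labelled BDL7 replicate 1 read above the other 3 BDL7 libraries for 27 of the 28 interferon-stimulated genes, by a median of 0.99 log2 units, and for all 16 GTPases, by 1.72. Among other lists, described below, that library was also highest for 14 of 15 class I genes, 16 of 19 major urinary proteins and 19 of 23 chaperones. The medians were 0.56, 0.69 and 0.40 log2 units above the other 3. Without BDL7 replicate 1, 13 interferon-stimulated genes and 9 GTPases were still called lower. Over the 8 fits that leave out a library, the interferon-stimulated count ran from 11 without BDL28 replicate 3 to 26 without BDL28 replicate 1, with 12 without BDL7 replicate 2. The GTPase count ran from 2 without BDL28 replicate 2 or 3 to 12, with 3 without BDL7 replicate 2 and 5 without BDL28 replicate 4. With no filter on low counts, 22 of 37 and 5 of 19 members were called lower. T and NK cell markers, 18 genes in the table, had no member that passed the filter, and their summed level was 27.9 to 71.9 in BDL7, 16.7 to 81.7 in BDL28 and 39.7 to 57.8 in SHAM, with 1 marker at 0 throughout BDL7 and 2 throughout BDL28. Their part in the interferon result was not tested.

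Among genes of class I antigen presentation, 8 of 15 tested were lower and 0 higher, with a median of -0.67. H2-Q7, a class Ib molecule, read 683, 418, 384 and 319, then 152, 188, 233 and 161, against 446, 648, 647 and 506 in SHAM (log2 change -1.25, SE 0.22, limma adjusted p = 0.0077). H2-T23, which presents signal peptides to NK cells, changed by -1.12 (limma adjusted p = 0.01), and both calls held in every fit. Reads of near-identical class I genes may be shared between them. With a library left out the class I count fell to as few as 2, without BDL28 replicate 3 or BDL7 replicate 2, and to 3 and 4 without BDL28 replicate 2 and BDL7 replicate 1. Of 7 tested class II and dendritic cell genes 1 was lower, and 6 were without BDL28 replicate 1. The count was 0 without BDL28 replicate 2, 3 or 4, or without BDL7 replicate 1, 2 or 4. H2-Aa, a class II chain, read 243, 179, 111 and 151 at day 7 and 173, 17.5, 29.7 and 25.7 at day 28 (log2 change -2.04, SE 0.67, limma adjusted p = 0.066), and the first BDL28 library overlapped the day 7 values. Without it the change was -2.74 (limma adjusted p = 4.9e-05).

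The acute-phase proteins did not move as a block. Of 27 tested, 8 were lower and 1 higher at day 28, with a median of -0.09, and all 9 of these calls held in every fit. Serum amyloid genes encode lipoprotein-bound proteins released in inflammation. Saa1 read 5086, 5179.6, 4667 and 4946 at day 7, 936, 267, 789 and 716 at day 28 and 1152, 928, 987 and 1188 in SHAM (log2 change -3.02, SE 0.34, limma adjusted p = 0.0022). Saa2, whose sequence is close to that of Saa1 so that reads may be split between them, read 4459, 3579.5, 3609 and 4329 and then 462, 75.3, 358 and 294, against 283, 267, 206 and 353 in SHAM (log2 change -4.01, SE 0.51, limma adjusted p = 0.0042). Saa3 likewise passed from 178, 171, 167 and 121 to 22.6, 5.51, 28.8 and 24.7 against 31.7, 33.5, 5.26 and 21.3 (log2 change -3.09, SE 0.43, limma adjusted p = 0.0041), and the day 28 differences of Saa1, Saa2 and Saa3 from sham were -0.79, -0.15 and -0.11 on the log2 scale. Saa4, the constitutive member of the family, was at 479.6, 425, 451 and 511 near its sham values of 541, 532, 492 and 685 and then below them at 188, 91.9, 104 and 116 (log2 change -1.95, SE 0.19, limma adjusted p = 7.5e-04). Lcn2, an iron carrier-binding protein of innate defence, fell from 1853, 1404, 1591 and 1875 to 619, 356, 655 and 699.9, still far above the 4.13, 6.21, 15.8 and 3.56 of SHAM (log2 change -1.56, SE 0.20, limma adjusted p = 0.0025). Orm2, an orosomucoid, fell from 1199, 1421, 1525 and 1479 to 142, 315, 335 and 672 against 78.4, 50.9, 57.9 and 59.3 in SHAM (log2 change -2.14, SE 0.39, limma adjusted p = 0.011). Without BDL28 replicate 1, 8 acute-phase genes were called higher and 10 lower. Steap4, a metalloreductase, changed by -1.46 (limma adjusted p = 0.0017).

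Many genes of mouse liver differ between the sexes, under the pulses of growth hormone. Among the called genes of such lists, all 19 major urinary proteins, all 11 male-biased and 9 of 11 female-biased genes were further from the sham level at day 28 on the same side. The 19 include Mup4 and Mup10, and the 11 female-biased genes include Cux2 and Sult2a2. Each passed the filter only through the group where it is high. The major urinary proteins are pheromone carriers that male mouse liver secretes in bulk. Of 19 tested, all 19 were lower at day 28, with a median of -4.69, and the median distance from sham went from -4.96 to -9.31. Mup4 and Mup10, 2 of the 19, passed the filter through BDL7 alone, and with no filter 20 of 22 members were called lower. The 3 members that did not pass the filter were Mup5, Mup6 and Mup21, with sham means of 237, 471 and 263. The summed level of the 22 genes was 9773 to 21569 in BDL7, 407 to 998 in BDL28 and 174001 to 238616 in SHAM. Mup20, the pheromone darcin, read 16387, 15992, 14302 and 20562 in SHAM, 10332, 8563, 3367 and 4508 in BDL7 and 799.8, 175, 361 and 281 in BDL28 (log2 change -4.13, SE 0.51, limma adjusted p = 0.0039). Mup3 read 531, 624, 404 and 388 at day 7 and 18.7, 10.1, 37.1 and 35.4 at day 28 (log2 change -4.35, SE 0.37, limma adjusted p = 7.5e-04) and Mup12 226, 193, 148 and 125 and 4.92, 6.43, 4.64 and 15 (log2 change -4.42, SE 0.33, limma adjusted p = 4.4e-04). Many of these genes are near-identical copies, so the split of reads between them is uncertain, and 17 of the 19 calls held in every fit.

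Of 15 tested male-biased genes, which include a few of the major urinary proteins, 11 were lower and 0 higher, with a median of -1.52, and all 11 were moves further. Selenbp2, a selenium-binding protein, read 2075, 1541, 1802 and 2416 in SHAM, 579, 633, 347 and 327 at day 7 and 76.7, 53.3, 58.5 and 42.9 at day 28 (log2 change -2.97, SE 0.24, limma adjusted p = 5.1e-04). Nudt7, a peroxisomal coenzyme A hydrolase, read 2634, 2254, 2319 and 2537, then 383, 463, 340.00 and 429, then 122, 135, 141 and 161 (log2 change -1.52, SE 0.13, limma adjusted p = 4.4e-04). Outside this list, Ces3a, a carboxylesterase, read 444, 425, 170.5 and 255 at day 7 and 12.8, 0.919, 17.6 and 31.1 at day 28 against 3012, 2836, 2977 and 3048 in SHAM (log2 change -4.75, SE 0.83, limma adjusted p = 0.011). Hsd3b5, a male-biased steroid dehydrogenase, read 487, 325, 462 and 449 in SHAM, 0, 1.02, 0 and 0 in BDL7 and 0, 0, 0 and 0 in BDL28, and did not pass the filter. Over the fits that leave out a library 8 to 11 male-biased genes were called lower.

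Of 21 tested female-biased genes, 11 were higher and 0 lower at day 28, with a median of 1.1, and 10 of the 11 calls held in every fit. The 11 include Cux2 and Sult2a2, which passed the filter through BDL28 alone, the group where they are high. The counts were 13 higher and 1 lower without BDL28 replicate 1. Cux2, a repressor that marks female liver, read 0.835, 1.02, 9.97 and 3.05 at day 7 and 34.4, 68.9, 66.9 and 76.1 at day 28, a log2 change of 4.07. Sult2a2, a sulfotransferase of bile acids and steroids, had 1 read over the BDL7 group and 490 over the BDL28 group, with values of 16.7, 107, 133 and 228 at day 28. The ratio was 529 with a 95% exact counting interval of 94.6 to 20950.0, which covers counting error only and leaves out the spread between libraries. The fitted change of Sult2a2, 6.25 with a pseudocount of 1 and 4.18 with one of 5, depends on that choice. Sult2a1, a close copy, had 0 reads in BDL7 and SHAM and values of 3.94, 132, 172 and 86.8 in BDL28. With a floor of 3 counts over the BDL7 group it was at least 146-fold higher at day 28, and at least 192-fold without BDL28 replicate 1. Cyp2b9, a cytochrome P450, had 0 reads in BDL7 and values of 67.9, 8.27, 13 and 21.4 in BDL28, at least 40.8-fold higher, and at least 21.0-fold without replicate 1. Neither Sult2a1 nor Cyp2b9 passed the filter, and Cux2 and Sult2a2, 2 of the 21 tested members, passed it through BDL28 alone, so their changes are descriptions with no test. With no filter, 14 of 29 members with a read were called higher and 0 lower. Reads of the Sult2a copies may be split between them.

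Slc22a27, an organic anion transporter gene, read 5.85, 9.15, 6.98 and 11.4 and then 44.3, 36.8, 44.6 and 57.9 (log2 change 2.34, SE 0.26, limma adjusted p = 0.0012), and Slc22a26 changed by 2.34, Fmo2 by 1.98 and Tox, a nuclear factor, by 1.77. Slc22a27 reached 10 in only 1 BDL7 library, and its BDL28 values alone were enough to pass the filter. Sult1e1, the oestrogen sulfotransferase, read 49.3, 113, 244 and 114 at day 7 and 100.3, 1409, 1285 and 1235 at day 28, and was not called with all libraries (log2 change 2.62, SE 0.94, limma adjusted p = 0.088). The first BDL28 library lay within the day 7 range, and without it the change was 3.54 (limma adjusted p = 0.0044). In growth hormone signalling 3 of 15 tested genes were higher and 3 lower, of which 0 and 1 held in every fit. Ghr, the growth hormone receptor, read 1642, 1617, 1812 and 1649.5 in SHAM, 582, 603, 603 and 594 at day 7 and 422, 324, 409.5 and 518 at day 28 (log2 change -0.53, SE 0.13, limma adjusted p = 0.022). Its call was lost without BDL28 replicate 3 or without any one of the BDL7 libraries. Ptpn1, a phosphatase that acts on the receptor's kinase, returned toward sham, from 351, 253, 245 and 234 to 175, 130.5, 163 and 178 against 153, 144, 146 and 146 (log2 change -0.73, SE 0.15, limma adjusted p = 0.011).

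**Figure D3:**
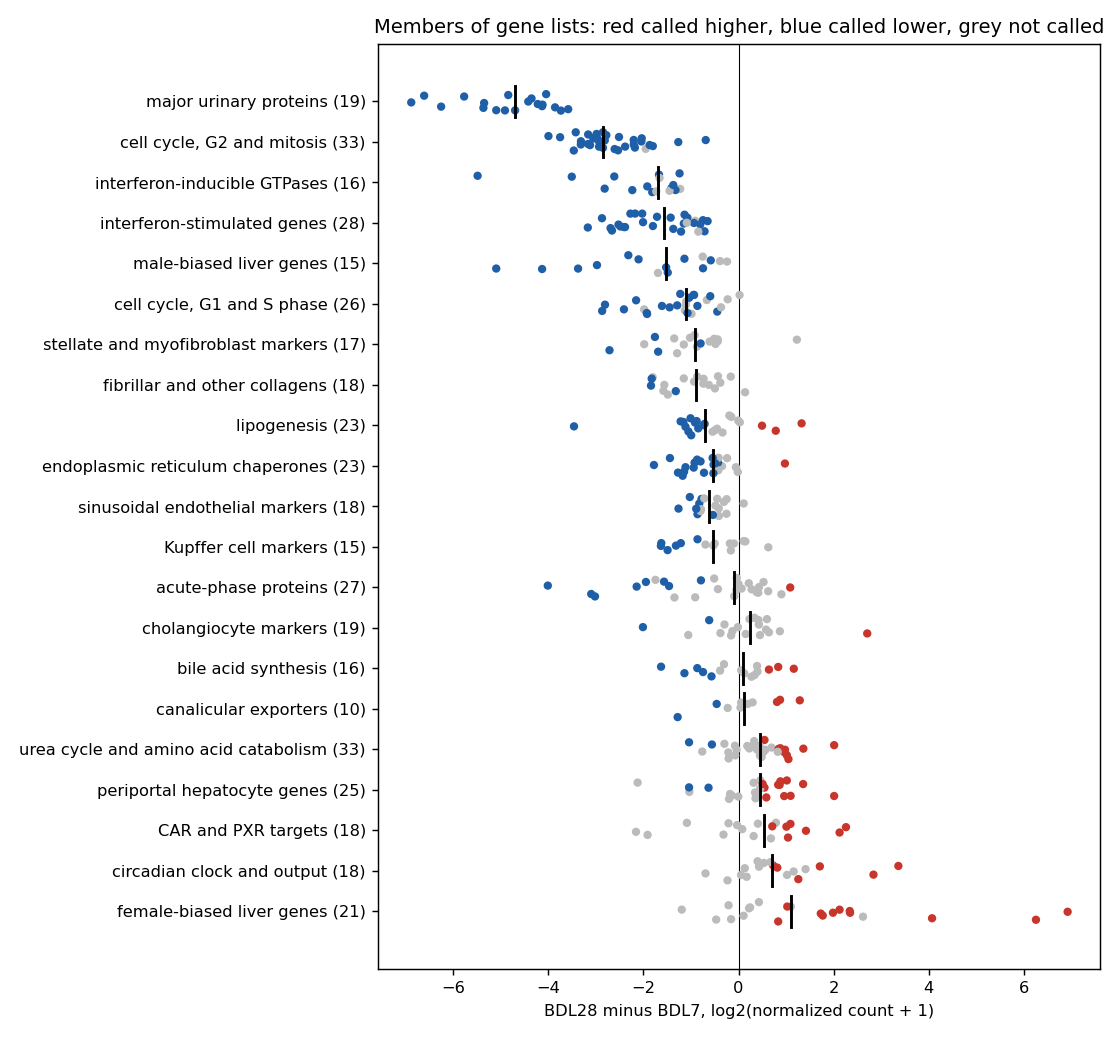
Change from BDL7 to BDL28 in log2(normalized count + 1) for the tested members of 21 gene lists, with the number tested in brackets, 1 point per gene and a bar at the list median. Red points were called higher, blue lower and grey neither. Every tested major urinary protein is blue, Mup4 and Mup10 among them. The female-biased list holds 11 red and 0 blue points, with Cux2 and Sult2a2 among the red. Each gene named here passed the filter only through the group where it is high.

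Of 16 tested genes of bile acid synthesis 3 were higher and 5 lower, with a median of 0.09. Calls numbered 7 higher and 5 lower without BDL28 replicate 1. The higher count was 1 without BDL28 replicate 2 or 3 or BDL7 replicate 1 or 2, and the lower count 2 without BDL28 replicate 3 and 3 without any one BDL7 library. Cyp7a1, the rate-limiting enzyme of the classical route, read 238, 814, 451 and 718 in BDL7 and 812, 345, 482 and 652 in BDL28, both above the 70.2, 137, 159.9 and 200.4 of SHAM, and was not called (log2 change 0.12, SE 0.41, limma adjusted p = 0.86). Its libraries overlapped widely. Cyp8b1, which makes cholic acid precursors, read 30.1, 26.4, 45.9 and 55.7 and then 51.2, 82.7, 122 and 105 against 563, 709.9, 695 and 629.7 in SHAM (log2 change 1.16, SE 0.30, limma adjusted p = 0.024), a call lost without BDL28 replicate 2, 3 or 4 or BDL7 replicate 1 or 2. Cyp7b1, of the alternative route, moved further below sham, from 108, 106, 126 and 85.5 to 53.1, 45, 65 and 32.2 against 1256, 917, 890.03 and 1248 (log2 change -1.14, SE 0.21, limma adjusted p = 0.0077). Cyp2c70, which makes the muricholic acids of the mouse, fell from 1803, 2107, 2189.6 and 1974 to 1320.3, 821, 977 and 1401 (log2 change -0.87, SE 0.17, limma adjusted p = 0.0098). Acox2, a peroxisomal oxidase of side chain shortening, rose from 494, 501, 545 and 516 to 654, 879, 796 and 898 (log2 change 0.64, SE 0.12, limma adjusted p = 0.0084). The calls of Cyp7b1, Cyp2c70 and Acox2 held in every fit.

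Among transporters, Abcb11, the bile salt export pump of the canalicular membrane, read 1106, 875, 1006 and 998 in SHAM, 557, 667, 857 and 827 at day 7 and 381, 176, 270.2 and 416 at day 28 (log2 change -1.28, SE 0.26, limma adjusted p = 0.012). Abcb1a, a multidrug export pump, rose from 44.3, 76.3, 74.8 and 84 to 170.2, 185, 145 and 171 against 9.63, 12.4, 7.36 and 5.93 in SHAM (log2 change 1.29, SE 0.19, limma adjusted p = 0.0035). Abcg8, one chain of the sterol exporter, rose from 56, 62, 70.8 and 87.8 to 152, 111, 93.8 and 132 (log2 change 0.81, SE 0.18, limma adjusted p = 0.015). These calls held in every fit, and of 10 tested canalicular genes 3 were higher and 2 lower. On the sinusoidal side, Slc10a1, the sodium-dependent bile acid importer, read 221, 286, 389.9 and 302 at day 7, 287, 725, 766 and 689 at day 28 and 845, 864, 989 and 829 in SHAM. It was not called with all libraries (log2 change 0.97, SE 0.31, limma adjusted p = 0.053), and its change was 1.3 (limma adjusted p = 1.4e-04) without BDL28 replicate 1. Slco1a4, an organic anion importer, rose from 244, 373, 336 and 365 to 446, 859.96, 843 and 905 (log2 change 1.18, SE 0.23, limma adjusted p = 0.01). Among the basolateral exporters, which let bile acids back into blood, Abcc4 read 35.1, 43.7, 53.8 and 55 and then 206, 84.5, 52 and 45 (log2 change 0.78, SE 0.42, limma adjusted p = 0.21), and Slc51b, one chain of the organic solute exporter, 26.7, 26.4, 25.9 and 26.7 and then 21.6, 57.9, 36.2 and 63.2 (log2 change 0.62, SE 0.30, limma adjusted p = 0.15); neither was called with all libraries, and Slc51b was without BDL28 replicate 1 (0.92, limma adjusted p = 0.0056).

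CAR and PXR are receptors that induce drug-metabolizing enzymes. Of 18 tested targets, 7 were higher and 0 lower, with a median of 0.54, and all 7 calls held in every fit. The fit without BDL28 replicate 1 called 9 higher and 3 lower, with a median of 0.40. Cyp2c37 read 114, 186, 247 and 214 at day 7 and 789, 1027, 1008 and 729 at day 28, against 943, 741, 844 and 886 in SHAM (log2 change 2.26, SE 0.22, limma adjusted p = 8.4e-04). Por, the reductase that serves the cytochromes P450, rose from 559, 804, 899 and 835 to 986, 1994, 1961 and 1568 against 413, 391, 371 and 409 (log2 change 1.04, SE 0.23, limma adjusted p = 0.015). Cyp2a5 changed by 1.42 and Cyp2a4, its near-identical neighbour, by 2.12, so reads may be split between them. Cyp2b10, the classical target of CAR, read 20.9, 48.8, 37.9 and 32.1 at day 7 and 531, 14.7, 30.6 and 11.8 at day 28, where only the first BDL28 library was above the day 7 range, and the gene was not called (log2 change 0.32, SE 1.15, limma adjusted p = 0.87). Nr1i3, which encodes CAR itself, rose from 56.8, 88.5, 92.7 and 84.7 to 153, 183, 230.3 and 239 against 82.6, 139, 122 and 123 in SHAM (log2 change 1.31, SE 0.19, limma adjusted p = 0.0033). Of 26 tested targets of NRF2, the regulator of the oxidative stress response, 1 was higher and 4 were lower. The shares over all genes tested were 9.52% and 10.9%, and 16.9% and 19.4% without BDL28 replicate 1. Without that library, which read above the other 3 libraries for 16 of the 26, 2 were higher and 13 lower. The lower count was 2 without BDL28 replicate 3 or BDL7 replicate 1, 2 or 4. Nqo1, a quinone reductase, rose from 42.6, 60, 73.8 and 46.6 to 115, 135, 117 and 145 (log2 change 1.21, SE 0.18, limma adjusted p = 0.0035), whereas Gstm2, a glutathione transferase, fell from 437, 676, 475 and 628 to 304, 142, 186 and 307 (log2 change -1.29, SE 0.25, limma adjusted p = 0.011); both held in every fit. Mt2, a metallothionein, read 1507, 1047, 1509 and 1635 and 1235, 4109, 2552 and 1857 and was not called (log2 change 0.66, SE 0.32, limma adjusted p = 0.17), with 0.94 (limma adjusted p = 0.027) without BDL28 replicate 1.

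Of 23 tested lipogenesis genes 12 were lower and 3 higher, with a median of -0.71, and 6 lower and all 3 higher calls held in every fit. Acacb, the acetyl coenzyme A carboxylase that restrains fatty acid oxidation, read 173, 247, 285 and 174 in SHAM, 61.8, 103, 85.7 and 106 at day 7 and 15.7, 4.59, 7.43 and 4.29 at day 28 (log2 change -3.46, SE 0.35, limma adjusted p = 8.0e-04). Fasn, the fatty acid synthase, read 1093, 1190.1, 1143 and 1221 and then 602, 498, 607 and 867 (log2 change -0.88, SE 0.16, limma adjusted p = 0.0067). Gpam, which starts glycerolipid synthesis, fell from 739, 838, 697 and 727 to 384, 254, 352 and 415 (log2 change -1.11, SE 0.15, limma adjusted p = 0.0026), and Plin2, which coats lipid droplets, from 1322, 1384, 1159.6 and 1114 to 788, 431, 499 and 752 (log2 change -1.05, SE 0.19, limma adjusted p = 0.0077). Pparg, a nuclear receptor that favours lipid storage, moved the other way, from 17.5, 15.3, 14 and 28.2 to 44.3, 57, 35.3 and 53.6 (log2 change 1.33, SE 0.25, limma adjusted p = 0.0087). The lower count ran from 7 without BDL28 replicate 3 to 14 without BDL28 replicate 4.

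Of 33 tested genes of the urea cycle and amino acid catabolism 10 were higher and 2 lower, with a median of 0.46, and 2 of the higher calls held in every fit. Without BDL28 replicate 1, which read below the other 3 libraries for 27 of the 33 genes, 23 were higher and 2 lower. Leaving out BDL28 replicate 2 or 3 or BDL7 replicate 1 or 2 left 2 called higher. Asl, argininosuccinate lyase, read 199.5, 279, 257 and 222 in SHAM, 123, 145, 195 and 203 at day 7 and 303, 1046, 791 and 756 at day 28 (log2 change 2.01, SE 0.36, limma adjusted p = 0.0098). Got1, an aspartate aminotransferase, rose from 479, 598, 651 and 546 to 821, 1267, 1709 and 1055 (log2 change 1.05, SE 0.20, limma adjusted p = 0.0096). Arg1, the arginase of the urea cycle, read 2578, 3155, 3557 and 2646 and then 3271, 7461, 7205 and 7267 (log2 change 1.02, SE 0.25, limma adjusted p = 0.022), a call lost without BDL28 replicate 2, 3 or 4 or BDL7 replicate 1, 2 or 4. Glul, the glutamine synthetase of hepatocytes next to the central vein, moved further below sham, from 1049, 1285, 1749.9 and 1479 to 352, 416, 501 and 601 against 2266, 2271, 2308 and 2607 (log2 change -1.57, SE 0.19, limma adjusted p = 0.002). Rhbg, an ammonium transporter of the same cells, read 27.6, 21.4, 15 and 32.1 at day 7 and 4.92, 2.76, 3.71 and 4.29 at day 28, and is given with no test because it passed the filter through BDL7 alone. Of 22 tested pericentral genes 6 were lower and 4 higher, and of 25 periportal genes 11 were higher and 2 lower. Among the periportal genes 15 were higher and 5 lower without BDL28 replicate 1. The higher count was 3 without BDL28 replicate 3 or BDL7 replicate 1 or 4, and 3 of the 11 calls held in every fit. Cyp2e1, a pericentral enzyme, changed by 0.26 (limma adjusted p = 0.49) and Cyp2f2, a periportal one, by -1.03 (-0.61 without BDL28 replicate 1; limma adjusted p = 0.099 and 0.036), neither called with all libraries. Pck1, the enzyme that commits carbon to glucose, rose from 1826, 2972, 3234 and 2444 to 4665, 5193, 4626 and 4201 toward the 6272, 6091, 5745 and 5755 of SHAM (log2 change 0.86, SE 0.18, limma adjusted p = 0.011), and Ppargc1a, a coactivator of fasting metabolism, from 55.1, 57, 64.8 and 62.6 to 115, 171, 149.5 and 134 (log2 change 1.22, SE 0.14, limma adjusted p = 0.0016). Both belong to a list of gluconeogenesis and glycolysis genes that did not rise as a block. Of its 26 tested genes 5 were higher and 3 lower, with a median of -0.15, and 2 and 1 of these calls held in every fit. Without BDL28 replicate 1 the counts were 8 higher and 7 lower.

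Of 23 tested chaperones of the endoplasmic reticulum, which fold secreted proteins, 16 were lower and 1 higher, with a median of -0.54, 15 of the 17 called were moves further, and 11 of the 16 held in every fit. Hyou1 read 1049, 1018, 954 and 1323 in SHAM, 1088, 715, 695 and 639 at day 7 and 298, 389.6, 346 and 359 at day 28 (log2 change -1.14, SE 0.16, limma adjusted p = 0.0033). Hspa5, the chaperone BiP, read 7148, 4760.5, 4784 and 3773 and then 2278, 3382, 2563 and 2407 (log2 change -0.92, SE 0.20, limma adjusted p = 0.013). Pdia4, a disulfide isomerase, fell from 490.4, 267, 304 and 291 to 149, 143, 119.8 and 173 (log2 change -1.17, SE 0.19, limma adjusted p = 0.0049), and Pdia6 changed by -0.87. All BDL28 libraries were below all BDL7 libraries for these 4 genes. The lowest count was 11, without BDL28 replicate 3. Of the secreted coagulation and complement proteins 10 of 35 tested were lower and 2 higher, of which 6 and 0 held in every fit. Over all genes tested 10.9% were lower and 9.52% higher. C9, of the membrane attack complex, read 2707, 2558, 2860.5 and 3239 in SHAM, 1485, 1589.9, 1339 and 1436 at day 7 and 568, 314, 439 and 686 at day 28 (log2 change -1.60, SE 0.21, limma adjusted p = 0.0025), C6 changed by -1.49, and Mbl1, a mannose-binding lectin, by -1.28.

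**Figure D4:**
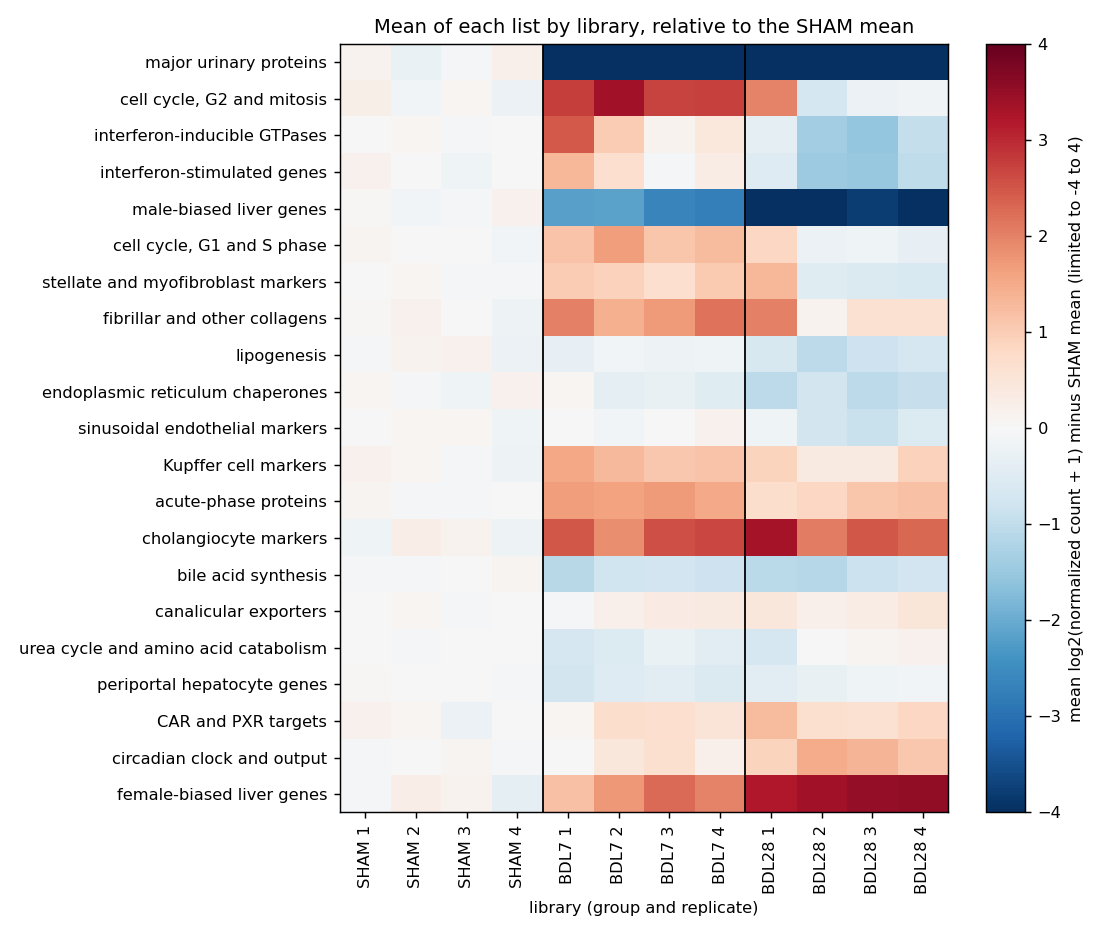
Mean of the tested members of each list in every library, in log2(normalized count + 1) relative to the SHAM mean, with colours limited to -4 and 4. BDL28 replicate 1 reads 1.99 in the row of mitosis genes, against -0.71 to -0.15 in the other BDL28 libraries, and 1.33 against -0.59 to -0.47 in that of stellate cell markers. The row of female-biased genes reads 3.22 to 3.55 in all 4 BDL28 libraries and 1.16 to 2.28 in BDL7.

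Counts for the other liver cells moved with BDL28 replicate 1. Stellate and myofibroblast markers were lower for 4 of 17 tested genes with all libraries and for 16 without that library, with medians of -0.92 and -1.52. Their summed level was 1394 to 1758 in BDL7, 1085 to 1156 in SHAM, 2279.5 in BDL28 replicate 1 and 582 to 640 in the other BDL28 libraries. Lrat, which stores retinol in quiescent stellate cells, read 114, 111, 92.7 and 114 at day 7, 129.9, 13.8, 12.1 and 21.4 at day 28 and 107, 65.8, 110.5 and 74.7 in SHAM (log2 change -1.98, SE 0.66, limma adjusted p = 0.068). The first BDL28 library was above the day 7 range and the other 3 far below it, and without the first the change was -2.73 (limma adjusted p = 4.9e-06). Colec10, a collectin of stellate cells, read 118, 172, 97.7 and 139 and then 126, 26.6, 23.2 and 24.7 (log2 change -1.76, SE 0.51, limma adjusted p = 0.042), a call that only the fit without BDL28 replicate 1 kept. Acta2, the actin of myofibroblasts, read 64.3, 19.3, 84.8 and 68.7 and then 27.5, 14.7, 13 and 10.7 (log2 change -1.69, SE 0.45, limma adjusted p = 0.027), and the call was lost without BDL28 replicate 2, 3 or 4 or BDL7 replicate 1, 3 or 4. Collagens were lower for 3 of 18 tested genes, and for 14 without the library, and other matrix genes for 6 and 23 of 33. No stellate or collagen call held in every fit. Col6a2, 1 of the 3 collagen calls, and Tagln, a tested stellate gene, passed the filter through BDL7 alone. With no filter, 1 of 19 collagens and 7 of 24 stellate and myofibroblast markers were called lower. Col1a1, the main fibrillar collagen, read 459, 182, 372 and 451 at day 7, 396, 69.8, 163 and 125 at day 28 and 15.1, 16.1, 16.8 and 15.4 in SHAM, and changed by -1.15 (limma adjusted p = 0.16) with all libraries and by -1.60 (0.031) without the first. Timp1, an inhibitor of matrix proteases, changed by -1.12 and -1.60 (limma adjusted p = 0.12 and 0.0044). Of the matrix genes 1 lower and 1 higher call held in every fit. Eln, elastin, fell from 29.2, 25.4, 50.9 and 87 to 17.7, 11, 15.8 and 15 (log2 change -1.48, SE 0.35, limma adjusted p = 0.018). Mmp7, a protease of injured ducts, rose from 20.1, 7.12, 26.9 and 19.8 to 114, 76.3, 64.1 and 47.2 with SHAM at 0 (log2 change 2.03, SE 0.38, limma adjusted p = 0.0095).

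**Figure D5:**
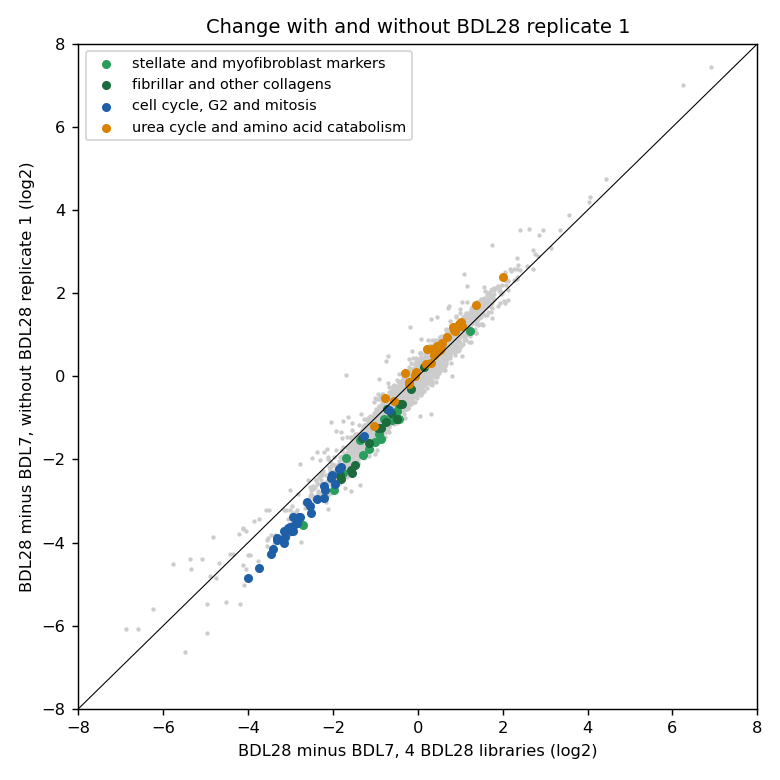
Change from BDL7 to BDL28 with all 4 BDL28 libraries (horizontal axis) and without BDL28 replicate 1 (vertical axis), in log2(normalized count + 1), with 1 grey point per gene tested and 4 lists in colour. Stellate, collagen and mitosis genes lie mostly below the diagonal, where the fall is larger without the library, and genes of amino acid catabolism lie mostly above it.

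Sinusoidal endothelial markers were lower for 7 of 18 tested genes and for 15 without BDL28 replicate 1, with medians of -0.63 and -0.72. Gpr182, a tested member, passed the filter through BDL7 alone, and with no filter 6 of 21 members were called lower. Cdh5, the cadherin of vessels, fell from 177, 162, 149.6 and 176 to 101, 78.1, 78.9 and 108, against 100.5, 95.6, 97.8 and 75.9 in SHAM (log2 change -0.86, SE 0.14, limma adjusted p = 0.0049). Dnase1l3, a secreted nuclease, moved further below sham, from 61, 49.8, 53.8 and 68.7 to 31.5, 16.5, 20.4 and 28.9 against 113, 119, 92.6 and 106 (log2 change -1.26, SE 0.22, limma adjusted p = 0.0068). Stab2, a scavenger receptor that defines these cells, was not called (log2 change -0.48, SE 0.18, limma adjusted p = 0.075), with -0.59 (limma adjusted p = 0.02) without BDL28 replicate 1. Kupffer cell markers were lower for 6 of 15 tested genes, of which 2 held in every fit, and for 7 with 1 higher without BDL28 replicate 1. Cdh5 is 1 of the 6 and is counted among the endothelial markers too. Timd4, which marks long-lived resident macrophages, fell from 85.2, 51.9, 50.9 and 44.3 to 19.7, 13.8, 14.9 and 23.6 (log2 change -1.62, SE 0.25, limma adjusted p = 0.0041) and held in every fit. Clec4f, which defines mouse Kupffer cells, read 197, 163, 148 and 157 and then 98.4, 36.8, 32.5 and 96.5 (log2 change -1.49, SE 0.36, limma adjusted p = 0.022), a call lost without BDL28 replicate 2 or BDL7 replicate 1 or 2. Monocyte and macrophage markers were lower for 3 of 16 and for 13 without BDL28 replicate 1, which read above the other BDL28 libraries for 15 of the 16. Of 17 tested genes of lipid-associated macrophages 1 was higher and 1 lower, with a median of -0.12, and without BDL28 replicate 1 the counts were 1 and 8, with a median of -0.19. Gpnmb, of lipid-laden macrophages, read 89.4, 75.3, 91.7 and 90.1 and then 548, 77.2, 99.4 and 238 and was not called (log2 change 1.04, SE 0.56, limma adjusted p = 0.22). Pla2g7, a secreted phospholipase of macrophages and the list's 1 higher call, rose from 76, 68.2, 72.8 and 64.1 to 123, 135, 128 and 136 (log2 change 0.89, SE 0.12, limma adjusted p = 0.0024).

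Of 19 tested cholangiocyte markers 1 was higher and 2 were lower at day 28, against 9.52% and 10.9% of all genes tested. The median change was 0.23, with a median distance from sham of 2.81 at day 7 and 3.15 at day 28. BDL28 replicate 1 read above the other 3 libraries for 16 of the 19, and without it the median was -0.11, with 1 higher and 3 lower. The summed level was 3819 to 5289 in BDL7, 5818 in BDL28 replicate 1 and 2277 to 2796 in the other BDL28 libraries. Krt19, the keratin that stains bile ducts, read 19.2, 12.2, 23.9 and 26.7 at day 7, 56.1, 13.8, 34.4 and 19.3 at day 28 and 1.38, 2.48, 1.05 and 3.56 in SHAM (log2 change 0.43, SE 0.41, limma adjusted p = 0.47). Sox9, a transcription factor of ducts and progenitors, changed by -0.38 (limma adjusted p = 0.4). Elf3, an epithelial transcription factor, fell from 104, 70.2, 73.8 and 61.8 to 23.6, 15.6, 13 and 22.5 against 2.75, 7.45, 3.16 and 7.12 (log2 change -2.01, SE 0.24, limma adjusted p = 0.0016). The call of Elf3 held in every fit. Spp1, osteopontin, read 2273, 1527, 1728 and 1740.1 and then 2118, 629, 697 and 599 and was not called (log2 change -1.06, SE 0.37, limma adjusted p = 0.076), with -1.49 (limma adjusted p = 1.6e-05) without BDL28 replicate 1.

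Of 18 tested genes of the circadian clock and its output 6 were higher and 0 lower, with a median of 0.70, and 11 were higher without BDL28 replicate 1. The clock turns over each day, and the labels give no hour of collection, so time of day and time after ligation cannot be told apart. Per1, a repressor of the clock, read 12.4, 8.69, 13.7 and 10.7 in SHAM, 7.52, 8.14, 11 and 6.87 at day 7 and 57.1, 96.5, 81.7 and 39.7 at day 28 (log2 change 2.84, SE 0.29, limma adjusted p = 7.5e-04). Ciart, another repressor, read 2.51, 7.12, 16 and 2.29 and then 44.3, 96.5, 81.7 and 47.2 (log2 change 3.36, SE 0.51, limma adjusted p = 0.0046). For Per1 and Ciart the day 28 values alone were enough to pass the filter, and most of their day 7 values lay below its threshold. Usp2, a deubiquitinase under clock control, rose from 26.7, 50.9, 57.8 and 38.2 to 89.5, 190.2, 169 and 128 (log2 change 1.71, SE 0.28, limma adjusted p = 0.0057), and Hlf, an output factor, from 196, 219, 249 and 219.8 to 264, 423, 495 and 412 (log2 change 0.81, SE 0.17, limma adjusted p = 0.013). These 4 calls held in every fit. Cirbp, a cold-induced RNA-binding protein, rose with them from 57.6, 65.1, 58.8 and 86.2 to 195, 384, 315 and 299 (log2 change 2.12, SE 0.20, limma adjusted p = 7.5e-04). The E-box CACGTG, to which the clock activators bind and which reads the same on both strands, is marked in capitals in the promoters of the pair that rose most, on GRCm38.p6 at chr3:95882247-95882292, minus strand for Ciart and chr11:69098763-69098808, plus strand for Per1.
Ciart: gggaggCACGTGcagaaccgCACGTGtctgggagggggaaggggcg
Per1: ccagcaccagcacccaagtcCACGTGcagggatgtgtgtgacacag
It stood in 5 of the 15 clock genes with a window (33.3%) and in 12% of all tested genes with one; this motif was chosen after the values were seen.

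Several of the most changed genes belong to none of these groups. Lrtm2, a membrane protein with leucine-rich repeats, read 0, 0, 1.05 and 0 in SHAM, 25.1, 33.6, 42.9 and 48.1 at day 7 and 126, 319, 313 and 285 at day 28 (log2 change 2.72, SE 0.31, limma adjusted p = 0.002). Hspa2, a heat shock protein, rose from 17.5, 18.3, 39.9 and 18.3 to 50.2, 189, 141 and 89 (log2 change 2.20, SE 0.41, limma adjusted p = 0.0098). Nlrp12, a sensor of the inflammasome family, was below its sham values of 195, 159, 153 and 200.4 at day 7 with 13.4, 40.7, 41.9 and 33.6 and back near them at day 28 with 73.8, 251, 158 and 154 (log2 change 2.26, SE 0.43, limma adjusted p = 0.011). Ly6d, a surface antigen, read 429, 312, 122 and 221 and then 92.5, 0, 1.86 and 12.9 (log2 change -4.98, SE 1.34, limma adjusted p = 0.039), a call that only the fit without BDL28 replicate 1 kept.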

How the data were processed

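Liver RNA was sequenced with QuantSeq 3' end libraries carrying unique molecular identifiers. The deposited table holds a normalized signal: in each library the authors scaled all gene counts by a common factor. Per the submitters' processing notes, RSEM 1.3.1, STAR 2.7.9a and DESeq2 were used on GRCm39 along with Trim Galore and UMI-tools 1.1.1, with no roles stated. Every value was a whole multiple of 1 read within a tolerance of 1e-06, so reads could be recovered in all 36 libraries. Symbols from GENCODE M21 matched 29121 of 29546 gene IDs, and 57 IDs sharing a symbol were kept as IDs.

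BDL28 was compared with BDL7 by limma 3.58.1 (R 4.3.3) on log2(normalized count + 1), with trend and robust settings, over genes that reached 10 in 4 or more of these 8 libraries, at a Benjamini-Hochberg adjusted p under 0.05. A gene at 10 or above in all libraries of 1 group passed this filter whatever the other group held. Genes said to have passed through 1 group alone were under 10 in every library of the other. Fold changes on this scale understate those of low genes. Differences from SHAM came from a fit of the 12 libraries. Alternatives were other pseudocounts, filters and scalings, sample weights, blocks, each library left out, edgeR 4.0.16 and DESeq2 1.42.0 on recovered reads. On simulated data for BDL28 against BDL7 (11353 genes) the limma fit recovered 68 of 100 genes changed 2-fold and 88 of 100 changed 4-fold, and 7 of its 163 calls were of unchanged genes. The simulated counts were drawn independently for each gene, only few genes of higher mean were changed, and no library stood apart. In the real comparison 20.5% of genes were called and BDL28 replicate 1 stood apart, so these rates cannot be taken as its own. Replicate numbers are those of the sample descriptions.

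The genes named are a set of 38 chosen landmarks, the 15 highest and 15 lowest called genes without overlap whose higher group averages at least 50, up to 6 members of each list by adjusted p, and list members not called. Some genes that fall under this rule are not reported here. The members and lists were chosen with earlier results of these data known. Intervals and floors cover counting error only.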

Additional observations from a re-analysis of the deposited data

Results flagged for a closer look

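Single libraries stood apart from the other 3 of their group for 24 of 298 sets of 4 values examined among the named genes, by Dixon's criterion, which chance meets in about 1 in 20 groups. In 14 of the 24 the library was BDL28 replicate 1. Over all genes tested it was the highest in 173 and the lowest in 197 such cases, against 31 to 85 and 32 to 93 for the other libraries.

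In BDL28 replicate 1 the normalized count was high for Mki67 (35.4, next 2.79), Top2a (69.9, next 6.43), Smc2 (77.7, next 31.6), Hells (28.5, next 4.29) and Tgtp1 (22.6, next 0). It was high too for Col14a1 (197, next 34.9), Colec10 (126, next 26.6) and Spp1 (2118, next 697). It was low for Cux2 (34.4, next 66.9), Sult1e1 (100.3, next 1235), Slc10a1 (287, next 689) and Slco1a4 (446, next 843). Arg1 (3271, next 7205) and Lrtm2 (126, next 285) were low there as well. BDL28 replicate 2 was low for Saa3 (5.51, next 22.6) and BDL28 replicate 4 high for Etnppl (540.2, next 469).

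Among the day 7 libraries, BDL7 replicate 2 was high for Top2a (228, next 176) and Smc2 (190.2, next 125) and low for Gpnmb (75.3, next 89.4). BDL7 replicate 3 was low for Lrat (92.7, next 111) and high for Hspa2 (39.9, next 18.3). BDL7 replicate 4 was high for Col6a2 (20.6, next 17.3) and for Sult2a2 (0.763, next 0), which is 1 read. BDL7 replicate 1 was low for Cdkn1c (0.835, next 5.98).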

How the results depend on the processing

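Against 1081 higher and 1243 lower calls, the counts stayed within 1.5 times under other pseudocounts, filters, scalings, edgeR and DESeq2, and no call changed direction under any of the 21 alternatives. With no filter 24619 genes were tested, and with a minimum of 50 it was 6898. Total-count scaling gave 934 higher and 1334 lower calls, and quantile normalization 1302 and 1187. Fitting all 36 libraries gave 1685 higher and 1968 lower calls and 699 returns, and adding SHAM to the fit, an alternative chosen after seeing the data, gave 500 returns against 329. Sample weights, which gave BDL28 replicate 1 a weight of 0.29, gave 2061 higher and 2361 lower calls, with 1095 returns, 1761 crossings and 1566 moves further. With a library left out, higher calls ran from 376 to 1920, lower calls from 534 to 2207, returns from 100 to 814, crossings from 386 to 1910 and moves further from 426 to 1403. The highest of each came without BDL28 replicate 1, and fewest higher calls without BDL28 replicate 3; the cause was not tested.

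A replicate block on the description numbers gave 1253 higher and 1448 lower calls and 545 returns. Same-numbered libraries correlated at 0.18, 0.11, 0.18 and -0.08 in their deviations, and as one was not above 0.1 the numbers were not taken to pair the samples. In each group 3 of the 4 libraries correlated best with the one of the same number, a hint from the data only. A replicate block on the title numbers, of which the groups share 2 so that the change rests on 4 libraries, gave 0 higher and 6 lower calls by limma, with 0 returns, 1 crossing and 5 moves further, and 1358 genes at an unadjusted p under 0.05. Under that block Cyp7a1 changed by -0.29, Alb by 0.053 and Sox9 by 0.25, each with its sign reversed. With sample weights Cyp7a1 changed by -0.031 and Cyp2b10 by -0.24, and in DESeq2 Alb changed by 0.0092. With a library left out Cyp7a1 ran from -0.23 to 0.36, Cyp2b10 from -0.89 to 0.90 and Alb from -0.069 to 0.083; the negative Cyp2b10 value came without BDL28 replicate 1. Cyp7a1, Cyp2b10, Alb and Sox9 were not called with all libraries. At 2278745 to 3064666 reads per library, a gene with few reads in a group has a fold set by its pseudocount.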

Other observations

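Genes encoded in mitochondrial DNA were higher at day 28 for 3 of 13 tested and for 10 without BDL28 replicate 1, which read below the other 3 BDL28 libraries for all 13. mt-Atp8, an ATP synthase subunit, read 418, 462, 465 and 429 at day 7, 511, 1097, 1147 and 876 at day 28 and 1115, 947, 982 and 1038 in SHAM (log2 change 0.97, SE 0.22, limma adjusted p = 0.017), a call lost without BDL28 replicate 3. mt-Nd5, of respiratory complex I, read 3462, 3989, 3957 and 3698 and then 4277, 7502, 7859 and 6989 (log2 change 0.78, SE 0.19, limma adjusted p = 0.018), lost without BDL28 replicate 3 or BDL7 replicate 1. Their part in the other results was not tested.

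Of 26 tested genes of cholesterol synthesis 3 were higher and 2 lower at day 28, against 9.52% and 10.9% of all genes tested. The counts without BDL28 replicate 1 were 11 and 2, against 16.9% and 19.4%. Igfbp1, a secreted binding protein of insulin-like growth factors, rose from 381, 511, 511 and 466 to 1132, 2629.5, 1300.1 and 726 (log2 change 1.48, SE 0.33, limma adjusted p = 0.017), a call lost without BDL7 replicate 1. Slc1a4, a neutral amino acid transporter, fell from 54.3, 46.8, 44.9 and 49.6 to 19.7, 13.8, 22.3 and 12.9, toward the 5.50, 9.93, 8.42 and 9.49 of SHAM (log2 change -1.49, SE 0.22, limma adjusted p = 0.0033). Peg3, an imprinted zinc finger gene, rose from 16.7, 25.4, 27.9 and 29 to 55.1, 81.8, 67.8 and 95.4 (log2 change 1.56, SE 0.23, limma adjusted p = 0.0033).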
